A study of Mus musculus with 16 samples.

Results

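The Zfp genes described here are the mouse genes whose symbol is Zfp followed by digits alone, other than Zfp42 and Zfp750, and whose mean over the 8 normalised libraries was at least 200 normalised counts. There were 237 such genes, out of 342 Zfp genes of the same naming at any level, 9499 genes of any kind past the same limit and 22375 genes in the table. They were selected on the measured level, so high expression is not a finding about them. Just inside the limit were Zfp189 with a mean of 205, Zfp235 with 210 and Zfp658 with 210, and just outside it were Zfp618 with 198, Zfp708 with 197 and Zfp36 with 193. Of the 237 genes, 198 had a mean of at least 200 in each of the 4 groups, 6 were under 200 in both untreated groups and 7 were under 200 in both treated groups. By line, 5 were under 200 in both WT groups (Zfp286, Zfp235, Zfp93, Zfp607 and Zfp658) and 3 in both Cfp1-/- groups (Zfp608, Zfp189 and Zfp821). Genes of these 4 sets passed the limit only through the condition or the line in which they were high, so that difference was partly set by the choice. All 237 were tested.

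RNA came from mouse embryonic stem (ES) cells of strain 129/OLA in 4 groups of 2 biological replicates. The groups were WT cells (E14Tg2a) left untreated, WT cells treated with doxorubicin, Cfp1-/- cells left untreated and Cfp1-/- cells treated with doxorubicin. Doxorubicin, an agent that damages DNA, was given at 1 μM for 6 hours by the treatment protocol, whereas the label of each treated sample writes 1 mM. All cells were grown with serum and LIF. Cfp1, encoded by Cxxc1, binds unmethylated CpG dinucleotides and belongs to a complex that methylates histone H3 at lysine 4. The 2 genotypes were compared as separate lines, and whether the replicates of a line came from 1 clone or several was not given in the sources used here, so p-values measure the spread between these libraries.

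A Zfp protein carries C2H2 zinc fingers, short folds held by a zinc ion that read DNA in tandem. Many also carry a KRAB box, which recruits the corepressor Trim28 and with it the H3K9 methyltransferase Setdb1, and in ES cells such proteins are known for keeping retroelements and imprinted regions silent. KRAB zinc finger genes arose by repeated duplication and sit in clusters along the chromosomes. By a sequence pattern, 104 of the 237 genes encoded a KRAB box and 9 a SCAN domain, which pairs such proteins with each other. The median number of C2H2 fingers was 11, with a range from 0 to 36, and 4 genes, Zfp365 among them, had no finger that matched the pattern. The genes spanned a median of 16.04 kb against 26.5 kb for all 9499 genes past the limit, while the exon lengths were close, at 3.95 and 4.07 kb.

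The start regions of 2 genes with large rises and 2 with large falls under doxorubicin are shown because CpG, the dinucleotide that Cfp1 binds, was unevenly spread among them. Each is 300 bases long, from 250 bases before to 50 bases after the start given by RefSeq on GRCm38.p6, and is written 5′ to 3′ on the strand of the gene with each CG in capitals.
Zfp365 (chr10:67912613-67912912, minus strand): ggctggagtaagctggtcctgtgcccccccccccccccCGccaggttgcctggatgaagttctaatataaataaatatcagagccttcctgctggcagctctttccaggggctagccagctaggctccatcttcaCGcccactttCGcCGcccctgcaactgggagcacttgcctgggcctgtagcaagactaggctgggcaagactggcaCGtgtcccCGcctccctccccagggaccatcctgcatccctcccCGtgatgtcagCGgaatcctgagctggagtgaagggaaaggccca
Zfp28 (chr7:6383068-6383367, plus strand): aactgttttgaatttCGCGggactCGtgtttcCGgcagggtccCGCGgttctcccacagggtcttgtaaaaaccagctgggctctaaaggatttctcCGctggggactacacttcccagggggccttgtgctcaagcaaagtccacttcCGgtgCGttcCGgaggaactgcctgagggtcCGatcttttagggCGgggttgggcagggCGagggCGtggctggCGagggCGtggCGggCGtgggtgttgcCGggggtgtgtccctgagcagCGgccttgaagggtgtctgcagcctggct
Zfp57 (chr17:37003416-37003715, plus strand): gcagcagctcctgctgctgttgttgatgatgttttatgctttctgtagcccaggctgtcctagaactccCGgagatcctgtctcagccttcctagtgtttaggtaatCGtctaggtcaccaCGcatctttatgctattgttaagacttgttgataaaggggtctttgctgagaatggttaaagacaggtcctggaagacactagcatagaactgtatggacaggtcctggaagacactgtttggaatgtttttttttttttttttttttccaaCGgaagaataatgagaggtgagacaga
Zfp819 (chr7:43606919-43607218, plus strand): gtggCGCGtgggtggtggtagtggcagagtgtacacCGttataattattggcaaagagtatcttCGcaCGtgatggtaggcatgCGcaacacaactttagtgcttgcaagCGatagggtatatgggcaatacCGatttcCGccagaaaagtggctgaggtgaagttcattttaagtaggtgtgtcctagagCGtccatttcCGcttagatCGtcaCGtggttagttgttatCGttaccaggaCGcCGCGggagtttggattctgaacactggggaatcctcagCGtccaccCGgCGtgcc
The windows held 8 CG in Zfp365, 20 in Zfp28, 4 in Zfp57 and 20 in Zfp819, so that 1 of the risers and 1 of the fallers held more CG than the other. A window was found for 195 of the 237 genes, with a median of 14 CG against 22 for the 7484 other genes past the limit and 7 for all 27025 promoters of the table. KRAB genes had a median of 11 and the others 16.5. Genes that rose in WT cells under doxorubicin had a median of 20 and those that fell 13. Genes higher and lower in untreated Cfp1-/- cells had medians of 12 and 11.5, against 15 for those that passed in neither direction. The half-site consensus of p53, a motif that reads the same on both strands, was matched in 14 of the 195 windows (7.18%). The share was 6.77% among the 7484 other genes past the limit and 8.37% among all promoters. The motif was matched in 2 of the 27 windows of genes that rose in WT cells. It was in none of the 4 windows shown, which says only that those letters are not there. CG was counted on the strand shown, and as its own reverse complement it has the same count on the other.

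Library totals lay between 14880589 and 29422711 counts, and the Zfp genes took 1.197 to 1.44% of them. Cxxc1 had 616 to 1412 counts in the WT libraries and 1 to 5 in the Cfp1-/- libraries. The run deposited as technical replicate 2 of treated Cfp1-/- replicate 1 stood apart from its partner. The 2 runs differed by 42.9 times the counting noise (chi-square over its degrees of freedom), against 0.998 to 1.05 in 6 of the 8 libraries. In it 4 Zfp genes of the X chromosome (Zfp711, Zfp182, Zfp185 and Zfp275) and 631 other genes were at 0 although the partner had at least 50 counts, so the treated Cfp1-/- values of these 4 are too low. For treated WT replicate 1 the value was 9.61. The ES cell markers, 10 of 10 detected, had a summed level of 71730 to 97946 normalised counts in untreated WT and 84116 to 85122 in untreated Cfp1-/- libraries. Under doxorubicin the sums were 27609 to 37770 and 32390 to 40264, and 9 of the 10 markers were called lower in WT and 8 in Cfp1-/- cells. Markers of fibroblasts, 6 of 6 detected, summed to 604 to 878 in untreated and 1192 to 1977 in treated libraries. Epiblast and ectoderm markers, 4 of 4 detected, summed to 4494 to 5964 in untreated WT and 1349 to 2312 in untreated Cfp1-/- libraries, and 1324 to 3552 and 536 to 603 when treated, with 3 of the 4 lower in Cfp1-/- cells in each condition. Their part in the changes below was not tested, and in bulk RNA fewer cells of a type and less RNA per cell cannot be told apart.

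Per kilobase of exon, the Zfp genes were expressed below the typical gene past the same limit. In untreated WT cells the median was 188.5 normalised counts per kb (lowest 8.18, highest 2505) against 272 for all 9499 genes, and in untreated Cfp1-/- cells it was 179 against 263. In treated cells the medians were 155 against 251 in WT and 147 against 242 in Cfp1-/-. The 5 highest in untreated WT cells were Zfp330, Zfp57, which guards imprinted methylation, Zfp106, Zfp207, which helps attach chromosomes to the spindle, and Zfp936. The 2 untreated WT libraries had 2659 and 2351 per kb for Zfp330, 3074 and 1655 for Zfp57, 2225 and 2206 for Zfp106, 2043 and 1995 for Zfp207, and 2169 and 1574 for Zfp936. The range of Zfp57 overlapped those of the other 4, so its place among them was within the spread, whereas Zfp330 lay above Zfp106 and Zfp106 above Zfp207 without overlap. In the treated WT libraries Zfp57 was at 737 and 300.5 per kb, under Zfp106 at 2091 and 1809.

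Doxorubicin was followed by lower levels of more Zfp genes than it was by higher levels, in both lines. In WT cells 94 of the 237 genes fell and 36 rose (edgeR quasi-likelihood test, adjusted p under 0.05, no limit on fold), which is 39.7% and 15.2%. Among all 15758 genes tested 21.8% fell and 26.5% rose, and among the 9499 genes past the same limit on level 32.1% fell and 20.7% rose. In Cfp1-/- cells 87 fell and 41 rose, 36.7% and 17.3%, against 21% and 27.8% of all genes tested and 30.2% and 20.4% of the genes past the limit. On the log2 scale the median Zfp gene changed by -0.35 in WT and -0.27 in Cfp1-/- cells, and the median of all genes past the limit by -0.17 in both. With total counts as library sizes the median of all genes tested moved up by 0.31 in WT and 0.21 in Cfp1-/- cells, and 48 fell and 53 rose in WT, 60 fell and 52 rose in Cfp1-/-. The Zfp median then lay at -0.03 and -0.06, and its distance to the genes past the limit was -0.18 and -0.10 under either scaling. Changes are therefore relative to the other genes of a library. The 198 genes past the limit in all 4 groups gave 81 falls and 27 rises in WT and 73 falls and 30 rises in Cfp1-/- cells. With the replicate number as a block, 113 of the 237 fell and 40 rose in WT, and 101 fell and 47 rose in Cfp1-/- cells.

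Large changes were fewer. When a change of 2.5-fold or more was also asked for, with a mean of 200 or more over the libraries compared, 9 Zfp genes rose and 14 fell in WT cells, 3.80% and 5.91%. The shares of all 9499 genes past the limit were 8.21% and 4.52%. In Cfp1-/- cells 6 rose and 12 fell, 2.53% and 5.06%, against 8.21% and 3.62%.

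**Figure D1:**
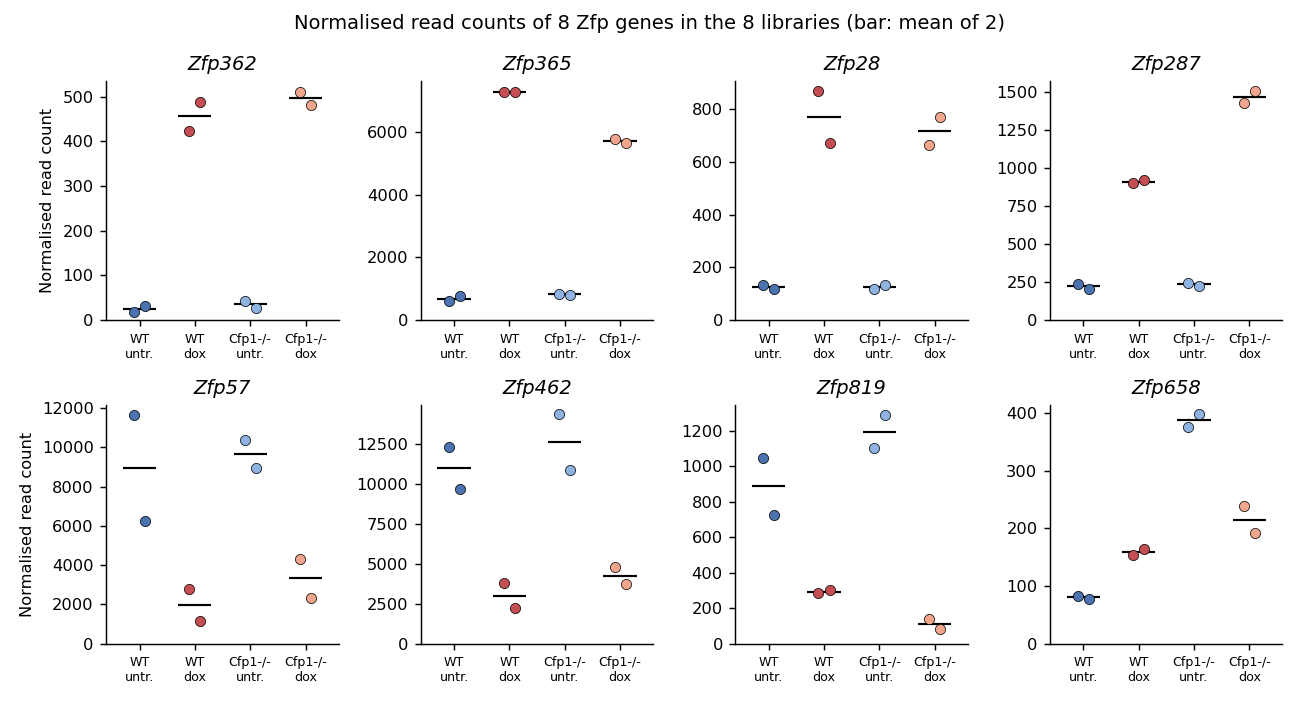
Normalised read counts (y axis, linear from 0, scale differs between panels) of 8 Zfp genes in each of the 8 libraries (x axis, 4 groups; untr., untreated; dox, doxorubicin), with a bar at the mean of 2 replicates. Zfp362, Zfp365, Zfp28 and Zfp287 are high in the 4 treated libraries, Zfp57, Zfp462 and Zfp819 are low in them, and Zfp658 moves up in WT and down in Cfp1-/- cells.

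Zfp362 (ENSMUSG00000028799, chromosome 4, 128450332 to 128483289, minus strand, NCBIm37) rose most in both lines. Its normalised counts were 18.7 and 31.3 in untreated WT, 423 and 489 in treated WT, 42.6 and 27.9 in untreated Cfp1-/- and 511 and 482 in treated Cfp1-/- libraries. The treated and untreated libraries did not overlap, and the gene passed the limit on level only through the treated ones. The log2 fold change was 4.25 ± 0.31 (standard error, adjusted p = 9.7e-06) in WT and 3.86 ± 0.29 (adjusted p = 1.3e-05) in Cfp1-/- cells. Zfp365 (ENSMUSG00000037855, chromosome 10, 67348851 to 67375410, minus strand), whose 300 bases are printed above, had 606 and 768 normalised counts in untreated and 7303 and 7293 in treated WT libraries. In Cfp1-/- cells it had 830 and 809 untreated and 5779 and 5663 treated. All 4 treated libraries were far above the 4 untreated ones, a 10.97-fold rise in WT and a 7.19-fold rise in Cfp1-/- cells.

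The KRAB gene Zfp28 and Zfp287, which has a SCAN domain and 14 fingers, followed. Zfp28 had 132.5 and 118 normalised counts in untreated and 868.5 and 672 in treated WT libraries, and 116 and 134 against 664 and 771 in Cfp1-/-, so that the lines overlapped within each condition. Like Zfp362, it passed the limit only through the treated groups. Its log2 fold changes were 2.66 ± 0.21 and 2.56 ± 0.21. Zfp287 had 238 and 205 in untreated and 897 and 920 in treated WT libraries, and 245 and 227 against 1428 and 1504 in Cfp1-/- libraries. The treated Cfp1-/- libraries were above the treated WT libraries for Zfp287, by 0.71 ± 0.15 on the log2 scale (adjusted p = 0.0081, missed without treated Cfp1-/- replicate 2, with a range from 0.68 to 0.74), whereas the test of the difference between the 2 responses gave an adjusted p of 0.36. Zfp651, Zfp248, Zfp688 and Zfp707 completed the 8 largest rises in WT, at 2.23, 1.91, 1.90 and 1.58 on the log2 scale. Their values in Cfp1-/- cells were 2.16, 1.93, 1.80 and 1.03, and all 4 passed the test there. The eighth largest rise in Cfp1-/- cells was that of the KRAB gene Zfp947, at 1.28 ± 0.24. Zfp651, Zfp688, Zfp707 and Zfp947 were also let in only through the treated groups.

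Among the falls was Zfp57 (ENSMUSG00000036036, chromosome 17, 37138108 to 37147580, plus strand), the KRAB protein that keeps methylation at imprinting control regions. It had 11637 and 6267 normalised counts in untreated and 2789 and 1138 in treated WT libraries, and 10363 and 8946 against 4292 and 2349 in Cfp1-/- libraries. Each treated library was below each untreated one, although replicates of a group were far apart. On the log2 scale it changed by -2.15 ± 0.44 (adjusted p = 0.0031) in WT and by -1.496 ± 0.43 (adjusted p = 0.017) in Cfp1-/- cells. Without untreated replicate 1 or treated replicate 2 of the Cfp1-/- line the latter missed the test, and over all fits without 1 library it ran from -2.02 to -1.12. Zfp462, with 33 fingers, went from 12293 and 9661 to 3822 and 2205 in WT and from 14351 and 10894 to 4812 and 3725 in Cfp1-/- libraries. Its groups did not overlap in either line, with log2 fold changes of -1.82 ± 0.27 and -1.52 ± 0.26. Zfp608 had the most negative value in WT, -2.40 ± 0.78 (adjusted p = 0.029), but 271 and 988 normalised counts in its 2 untreated libraries, and in Cfp1-/- cells, at -1.93 ± 0.85, it missed the test (adjusted p = 0.086). In WT it missed the test without untreated replicate 2 or treated replicate 1, with a range from -3.47 to -1.21 over the fits without 1 library. With the replicate number as a block it passed in both lines (adjusted p = 2.1e-05 in WT and 0.00075 in Cfp1-/- cells). The remaining 5 of the 8 largest falls in WT were Zfp459 (-2.06), Zfp2 (-1.89), Zfp184 (-1.83), Zfp317 (-1.73) and Zfp710 (-1.73), with standard errors from 0.18 to 0.28. All 5 also fell in Cfp1-/- cells, by values from -1.19 to -1.99. Zfp608, Zfp2 and Zfp184 were under the limit in both treated groups and passed it only through untreated cells. Zfp59 and Zfp161 were among the 8 largest falls in Cfp1-/- cells, at -1.85 and -1.57, and were at -1.33 and -1.12 in WT.

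The steepest fall of any Zfp gene in Cfp1-/- cells was that of Zfp819 (ENSMUSG00000055102, chromosome 7, 50862539 to 50873655, plus strand), a KRAB gene. Its normalised counts were 1047 and 724 in untreated and 286 and 301 in treated WT libraries, and 1100 and 1285 against 137 and 83.9 in Cfp1-/- libraries. The Cfp1-/- libraries lay above the WT libraries when untreated and under them when treated, without overlap in either condition. On the log2 scale the line without Cfp1 fell by 3.39 ± 0.27 and WT cells fell by 1.55 ± 0.25. The difference between the 2 responses was -1.84 ± 0.36 with an adjusted p of 0.10, and 0.013 with the replicate number as a block.

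Of 28 Zfp genes listed for a known role, 25 were past the limit on level, and 16 of them fell and 3 rose in WT, with 14 and 2 in Cfp1-/- cells. Of all genes past the limit 32.1% fell and 20.7% rose in WT, and 30.2% and 20.4% in Cfp1-/- cells. Of the 237 Zfp genes 39.7% fell and 15.2% rose in WT, and 36.7% and 17.3% in Cfp1-/- cells. The list was chosen with earlier results of these data known, so its falls beside these shares are a description and no test. Zfp281, a factor of the ES cell network, was at 7602 and 6818 in untreated and 3291 and 3523 in treated WT libraries, a log2 fold change of -1.04 ± 0.14, with -1.001 ± 0.14 in Cfp1-/- cells. Zfp143, an activator that binds many promoters, fell by 1.40 and 1.10 on the log2 scale, and Zfp207 fell by 0.89 and 0.61, the latter missing the test without treated Cfp1-/- replicate 2 (range -0.87 to -0.41 over the fits without 1 library). Zfp568, which represses a placental transcript of Igf2, fell by 0.87 and 0.92. Zfp809, the KRAB protein that silences retroviral DNA through Trim28, went the other way. It had 801 and 784 normalised counts in untreated and 1362 and 1223 in treated WT libraries, and 415 and 446 against 602 and 724 in Cfp1-/-. It rose in both lines, by log2 fold changes of 0.75 ± 0.15 and 0.66 ± 0.15, of which the second missed the test without treated Cfp1-/- replicate 2 (range 0.53 to 0.77), and was lower in Cfp1-/- than in WT cells in both conditions, at -0.85 ± 0.15 and -0.94 ± 0.15.

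The partners of the KRAB box fell with doxorubicin as well. The list of corepressor and heterochromatin genes held 28 symbols, of which 27 were found, 1 of them (Atf7ip) at 2 gene entries, so that 28 entries were tested. In WT cells 20 of the 28 fell and 1 rose, Rcor1, and in Cfp1-/- cells 17 fell and 1 rose, again Rcor1, beside the 32.1% lower and 20.7% higher of all genes past the limit in WT and the 30.2% and 20.4% in Cfp1-/- cells. The median log2 fold changes of the list were -0.70 and -0.43, beside -0.17 for all genes past the limit in each line. This list was also chosen with earlier results of these data known, so its share of falls is a description. Trim28 itself had group means of 35565 normalised counts in untreated and 15812 in treated WT cells, and 42366 and 20260 in Cfp1-/- cells, with log2 fold changes of -1.12 ± 0.13 and -1.02 ± 0.13. Setdb1 fell by 0.59 and 0.64 on the log2 scale. Smarcad1 fell by 1.54 and 1.11, and Cbx3, a heterochromatin protein, fell by 1.503 and 0.94. Dnmt1, the maintenance DNA methyltransferase, was at 0.09 and 0.12 and passed in neither line. In untreated Cfp1-/- against untreated WT cells 14 of the 28 entries were lower and 1 higher, with treated values of 9 and 2. The higher calls were all of the gene Atf7ip, 1 of its entries untreated and both of its 2 entries treated. Its 2 entries were also both among the falls in WT cells. Of all genes past the limit 20.5% were lower and 16.3% higher untreated, and 14.3% and 12.4% treated. Trim28 was at 0.28 ± 0.13 (adjusted p = 0.13) and 0.38 ± 0.13 (adjusted p = 0.057).

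KRAB genes had slightly lower medians than the other Zfp genes, and a larger share of them fell. In WT cells the 104 KRAB genes changed by a median of -0.39 on the log2 scale, with 47 falls and 16 rises, and the 133 others -0.32 with 47 falls and 20 rises. In Cfp1-/- cells the medians were -0.32 and -0.24, with 45 falls and 16 rises and 42 falls and 25 rises. The falls were 45.2% of the KRAB genes and 35.3% of the others in WT, and 43.3% and 31.6% in Cfp1-/- cells. With a limit of 400 normalised counts the medians were -0.51 and -0.36 in WT, and -0.39 and -0.23 in Cfp1-/- cells. By number of fingers, the 133 genes with at least 10 had a median of -0.41 in WT, the 74 with 4 to 9 had -0.17 and the 30 with fewer had -0.40, so that the medians did not follow the number of fingers. Of the 9 SCAN genes, 4 fell and 3 rose in WT cells. Other zinc finger families past the same limit gave 5 falls and 1 rise among 25 Zbtb genes (median -0.05), 5 and 4 among 14 Zscan and Zkscan genes (-0.15) and 8 and 1 among 13 Klf genes (-1.03) in WT cells. All these counts stand beside the 32.1% lower and 20.7% higher of all genes past the limit in WT, and the 30.2% and 20.4% in Cfp1-/- cells. The lists are small, and no difference between them was tested.

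The responses of the 2 lines resembled each other gene by gene, and the 2 comparisons share no library. Of the 36 genes that rose in WT cells 30 rose in Cfp1-/- cells too, 83.3% of the first list and 73.2% of the second. Of the 94 that fell 73 fell in both, 77.7% and 83.9%. Over the 9499 genes past the limit the same shares were 80.4% and 81.4% for rises and 76.6% and 81.4% for falls. Among those 9499 genes 13 were called in opposite directions, and 1 of the 237 was. Over the 237 genes Pearson's r between the log2 fold changes was 0.91 and Spearman's rho 0.85, against 0.92 and 0.88 over all 9499 genes past the limit, a description across genes that share libraries within a comparison.

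**Figure D2:**
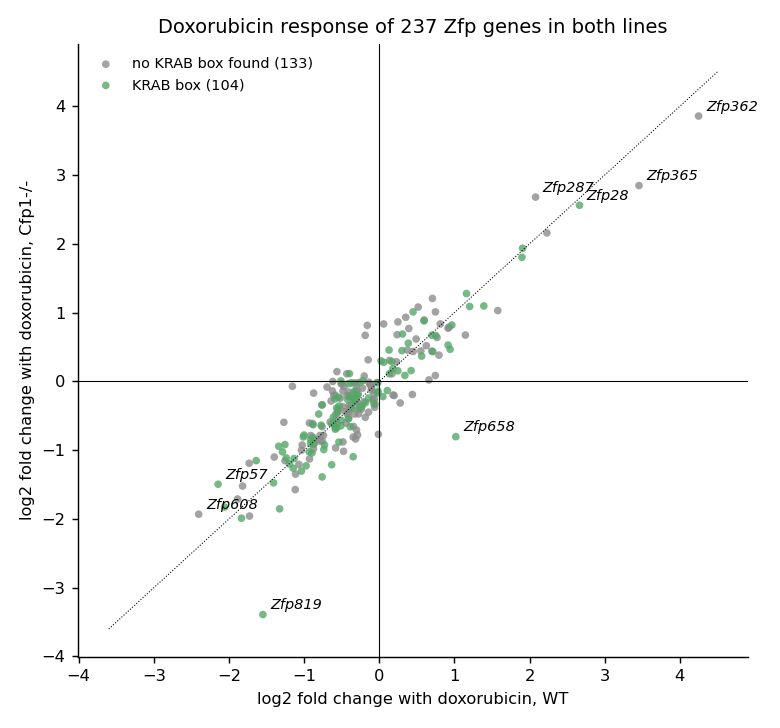
Log2 fold change with doxorubicin in WT (x axis) and in Cfp1-/- cells (y axis) of the 237 Zfp genes, 1 point each, in green for the 104 with a KRAB box and in grey for the other 133, with a dotted line where both are equal. Most points lie along the line, Zfp362 and Zfp365 at its upper end, and Zfp819 and Zfp658 lie well under it.

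The difference between the 2 responses was tested for every gene, and none of the 237 passed (edgeR quasi-likelihood test), with 22 at an unadjusted p under 0.05. At the same unadjusted limit were 1671 of all 15758 genes tested and 1022 of the 9499 genes past the limit on level. Of all 15758 genes 0.114% were higher and 0.121% lower in this test at an adjusted p under 0.05. DESeq2 called 2 of the 237, Zfp658 and Zfp819. The fit with the replicate number as a block also called 2, the same pair, each with a more negative response in Cfp1-/- cells.

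Zfp658 (ENSMUSG00000056592, chromosome 7, 50817626 to 50830831, plus strand), a KRAB gene with 21 fingers in the same cluster as Zfp819, was the only one of the 237 called in opposite directions in the 2 lines. Its normalised counts were 83.2 and 78.2 in untreated and 153 and 164 in treated WT libraries, and 375 and 398 in untreated and 238 and 192 in treated Cfp1-/- libraries. No 2 groups overlapped, and the lines were closer to each other when treated than when untreated. It rose by 1.02 ± 0.22 (adjusted p = 0.0040) in WT and fell by 0.80 ± 0.21 (adjusted p = 0.0097) in Cfp1-/- cells on the log2 scale. The fall missed the test without replicate 2 of either Cfp1-/- group, with a range from -0.99 to -0.65 over the fits without 1 library. Their difference of -1.82 ± 0.30 had an adjusted p of 0.057, 0.011 with the block, 0.00022 by DESeq2 and 0.032 without the deviating run. The gene sits just inside the limit on level and passed it only through the Cfp1-/- groups.

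Runs of Zfp genes whose starts lay at most 500 kb apart, with at least 3 of the 237 in each, formed 20 clusters that held 114 of the 237 genes, and 68 of the 104 KRAB genes. In WT cells 44 of the 114 fell and 15 rose, 38.6% and 13.2%, with a median of -0.35. Of the 123 genes outside clusters 50 fell and 21 rose, 40.7% and 17.1%, also with a median of -0.35. Beside them, 32.1% of all genes past the limit fell and 20.7% rose in WT, and 30.2% and 20.4% in Cfp1-/- cells. In Cfp1-/- cells the medians were -0.34 inside and -0.22 outside. The largest cluster, on chromosome 17 from 21145905 to 23736454 (NCBIm37), held 18 of the genes, with a median of -0.34 in WT and -0.14 in Cfp1-/- cells. Within it the values in WT cells ran from -1.27 for Zfp51 to 1.16 for Zfp947, with 4 of the 18 called lower and 1 higher. Zfp947 passed the limit on level only through the treated groups, so its rise was partly set by the choice. The cluster on chromosome 7 from 30553571 to 30954746 held 11, of which 7 fell and none rose in WT and 6 fell and none rose in Cfp1-/- cells, with medians of -0.55 and -0.68. There the values in WT cells ran from -1.15 for Zfp27 to 0.42 for Zfp74, which missed the test. On chromosome 13 from 66771705 to 67927937, 5 of 10 fell in each line, and Zfp459 was lowest in both at -2.06 and -1.83. The 9 other genes past the limit inside that span had medians of -0.10 and -0.06.

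The clusters with the highest medians in WT were that on chromosome 15 from 75447109 to 75806298, with 3 genes and medians of 0.77 and 0.64, and that on chromosome 9 from 21859904 to 22094985, with Zfp653, Zfp809 and Zfp599 and medians of 0.75 and 0.66. In each of the 2, 2 of the 3 genes rose in both lines. In the first, the highest gene in WT was Zfp707 at 1.58 and the lowest Zfp623 at -0.11. Zfp707 passed the limit on level only through the treated groups, so the place of this cluster was partly set by the choice. The 4 other genes past the limit inside the first span had medians of -0.06 and -0.23, and the 2 inside the second 0.07 and 0.09. Another cluster on chromosome 9, from 20149580 to 20399638, had a median of -0.80 in WT cells, with Zfp26 at -1.26 and Zfp426 at 0.71. Paralogues in a cluster can share sequence, and reads that fit more than 1 of them were not counted, so the values of near-identical copies are less certain.

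**Figure D3:**
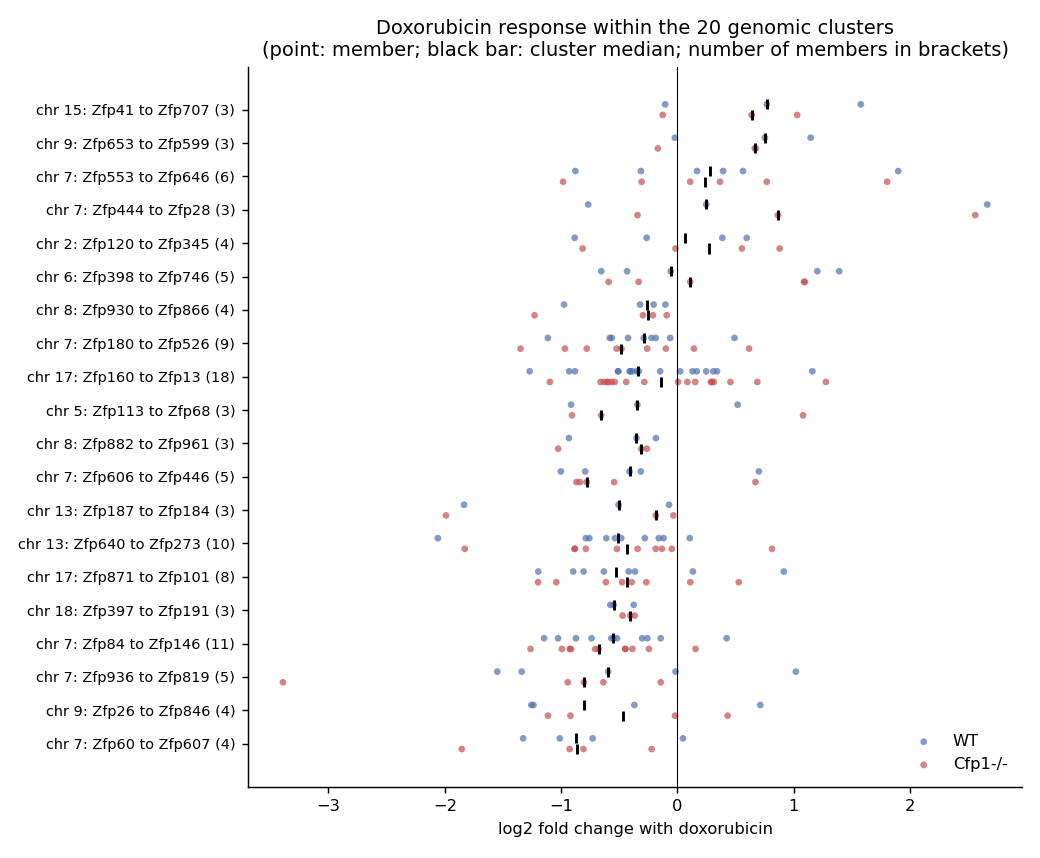
Log2 fold change with doxorubicin (x axis) of each Zfp gene in the 20 genomic clusters (y axis, ordered by the median in WT; the label gives the chromosome, the first and last gene along it and the number of genes), in blue for WT and red for Cfp1-/- cells, with a black bar at each median. Most bars lie at or under 0, and most clusters hold genes on both sides of 0.

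Between the lines, untreated Cfp1-/- cells had 49 Zfp genes lower and 29 higher than untreated WT cells, 20.7% and 12.2%. Of all 15758 genes 16.1% were lower and 17.9% higher, and of the 9499 past the limit 20.5% and 16.3%. In treated cells 35 were lower and 25 higher, 14.8% and 10.5%, against 10.8% and 15.1% of all genes and 14.3% and 12.4% of those past the limit. The medians of the Zfp genes were -0.08 and -0.04 and those of the genes past the limit -0.07 and -0.06. With total counts as library sizes the split was 30 lower and 51 higher in untreated and 20 lower and 33 higher in treated cells, and the medians were 0.12 and 0.05. The 198 genes past the limit in all 4 groups gave 43 lower and 17 higher in untreated cells, and 27 lower and 13 higher in treated cells. With the replicate number as a block 69 of the 237 were lower and 40 higher in untreated cells, and 55 lower and 37 higher in treated cells. Without 1 library at a time the treated counts ran from 13 to 39 lower and from 7 to 23 higher, and the untreated ones from 30 to 56 and from 17 to 31.

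The genes that were higher in Cfp1-/- cells lay mostly on chromosome 7, which carried 57 of the 237. These 57 include Zfp93, Zfp607 and Zfp658, which passed the limit on level only through the Cfp1-/- groups. Their difference between the lines was partly set by the choice. In untreated cells 20 of the 57 were higher and 1 lower, against 9 higher and 48 lower of the 180 on other chromosomes. In treated cells 17 were higher and 1 lower, against 8 and 34. The shares of the 180 were 5% higher and 26.7% lower untreated, and 4.44% and 18.9% treated. Of all 9499 genes past the limit, on any chromosome, 16.3% were higher and 20.5% lower untreated, and 12.4% and 14.3% treated. The 17 became 3 without treated WT replicate 2, 5 without treated Cfp1-/- replicate 1 and 6 without treated Cfp1-/- replicate 2, and the 20 became 13 without untreated WT replicate 2. The 57 genes had medians of 0.44 untreated and 0.26 treated on the log2 scale. The 667 other genes past the limit on chromosome 7 had medians of 0.46 untreated and 0.42 treated. Of them 45.9% were higher and 3.90% lower in untreated cells, and 37.9% and 4.20% in treated cells. The shares of the 57 Zfp genes were 35.1% and 1.75% untreated and 29.8% and 1.75% treated. These 667 genes are called the other genes of chromosome 7 here. The difference between the 667 other genes and the Zfp genes was not tested. Taken library by library against the mean of untreated WT, the other genes of chromosome 7 had medians of 0.45 and 0.41 in untreated Cfp1-/- libraries, 0.38 and 0.33 in treated ones, and -0.10 and -0.09 in the treated WT libraries. For these other genes the 4 Cfp1-/- libraries therefore stood above the 4 WT libraries. The Zfp genes of chromosome 7 had medians of 0.42 and 0.37 in untreated and -0.005 and -0.20 in treated Cfp1-/- libraries. In WT libraries they were at 0.08 and -0.08 untreated and at -0.42 and -0.57 treated. For the Zfp genes the Cfp1-/- libraries thus stood above the WT libraries within each condition, but not across conditions. A change at the Zfp genes of chromosome 7 and a change along the whole chromosome cannot be told apart from these medians.

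Chromosome 11 had a shift of like size in its other genes, with medians of 0.44 and 0.43 over 790 genes, but the 11 Zfp genes there had medians of -0.03 and 0.20. Of the 11, 2 were higher and 1 lower in untreated and 3 higher and none lower in treated cells. Among the 790 other genes 47.6% were higher and 4.43% lower untreated, and 40.4% and 1.90% treated. On chromosome 8 the 499 other genes had medians of -0.28 in both conditions and the 15 Zfp genes -0.34 and -0.30. Away from chromosomes 7 and 11 the Zfp genes had 47 lower and 7 higher of 169 in untreated cells, 27.8% and 4.14%. In treated cells 34 were lower and 5 higher, 20.1% and 2.96%. On these chromosomes the shares of other genes past the limit ran from 4.40% to 32.7% lower and from 6.31% to 20.4% higher untreated. Treated, they ran from 6.92% to 25.8% lower and from 4.32% to 12.5% higher. These are ranges over single chromosomes. A share pooled over those other genes was not computed, so the shares of the 169 cannot be set directly against them. The Zfp medians were -0.25 and -0.20, beside -0.14 and -0.12 for the 7805 other genes past the limit there. The difference was not tested.

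When each library was scaled within each chromosome by its genes other than the Zfp genes, an alternative chosen after these values were seen, 8 of the 57 genes on chromosome 7 were higher and 9 lower in untreated cells, with a median of -0.05. In treated cells 4 were higher and 8 lower, with a median of -0.19. The 8 higher ones in untreated cells were Zfp324, Zfp446, Zfp93, Zfp574, Zfp59, Zfp27, Zfp74 and Zfp658, and in treated cells Zfp324, Zfp446 and Zfp93 passed again, with Zfp941.

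**Figure D4:**
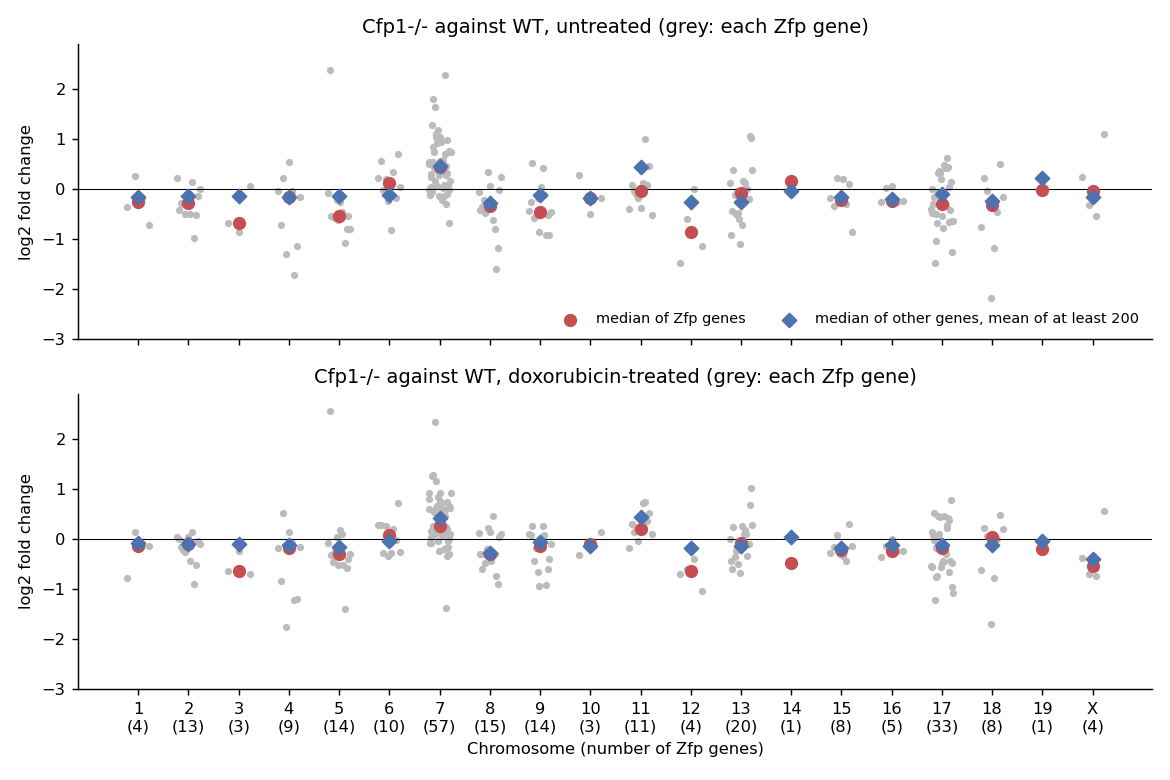
Log2 fold change of Cfp1-/- against WT (y axis) by chromosome (x axis, number of Zfp genes in brackets) for untreated (top) and treated cells (bottom), with each Zfp gene in grey, the median of the Zfp genes as a red circle and the median of the other genes with a mean of at least 200 as a blue diamond. On chromosome 7 both medians are above 0, at 0.44 and 0.46 in untreated cells. On chromosome 11 the blue diamond is above 0 in both panels, and the red circle is at -0.03 untreated and 0.20 treated.

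The 7 clusters of chromosome 7, with 43 of the genes, had unequal medians in Cfp1-/- against WT cells. The one from 134376575 to 135029510 was not higher, with a median over its 6 Zfp genes of 0.05 untreated and -0.02 treated, beside 0.76 and 0.44 for the 14 other genes inside. The highest untreated median was 0.98, for 4 KRAB genes from 28516408 to 29164274, of which 3 were higher, with Zfp59 at 1.18 ± 0.21 (adjusted p = 0.0030), whereas the 9 other genes inside that span had a median of 0.19. From 24866943 to 26012526 the 9 Zfp genes had a median of 0.54 in both conditions, none was lower, and the 10 other genes inside had 0.46 and 0.41. From 50442540 to 50873655, where Zfp658 and Zfp819 lie, the median was 0.46 and the 2 other genes had 0.31. The cluster from 6083091 to 6347755 was at 0.03 untreated and 0.61 treated, that from 13000502 to 13569689 at 0.24 and 0.17, and that from 30553571 to 30954746 at 0.44 and 0.39. Zfp607 (from 28516408 to 29164274), Zfp93 (from 24866943 to 26012526) and Zfp658 passed the limit on level only through the Cfp1-/- groups. The medians of their clusters were partly set by the choice.

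Of the single genes higher in Cfp1-/- cells, Zfp951 (ENSMUSG00000072774, chromosome 5, 105242366 to 105246371, minus strand), a KRAB gene, differed most. It had 278 and 203 normalised counts in untreated and 195 and 129 in treated WT libraries, and 1199 and 1258 and then 874 and 988 in Cfp1-/-. The 4 Cfp1-/- libraries were all above the 4 WT libraries, by log2 fold changes of 2.38 ± 0.23 (adjusted p = 0.00015) and 2.55 ± 0.23 (adjusted p = 0.00024). The other genes past the limit on its chromosome had medians of -0.14 and -0.16. Zfp93 on chromosome 7 had 172 and 141 in untreated and 107 and 98.2 in treated WT libraries, and 490 and 467 and then 535 and 490 in Cfp1-/-, again without overlap, and it passed the limit on level only through the Cfp1-/- groups. Its log2 fold changes were 1.64 ± 0.19 and 2.34 ± 0.20, and scaled within the chromosome the untreated value was 1.15. Zfp446 and Zfp324, of 1 cluster on chromosome 7, were higher by 1.80 and 1.29 untreated and by 1.28 and 1.26 treated. The treated value of Zfp446 missed the test without WT replicate 2 or Cfp1-/- replicate 1 (range 0.95 to 1.67). Zfp526 was higher by 1.04 and 1.16 but lost the call in 5 and 3 of the 8 fits without 1 library, over which it ran from 0.71 to 1.49 and from 0.77 to 1.67.

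The lowest genes in Cfp1-/- cells lay on several chromosomes. Zfp600, a KRAB gene on chromosome 4, had 3129 and 2295 normalised counts in untreated WT and 713 and 913 in untreated Cfp1-/- libraries, and 939 and 750 against 328 and 382 when treated. The lines did not overlap in either condition, with log2 fold changes of -1.71 ± 0.20 (adjusted p = 0.00040) and -1.23 ± 0.21 (adjusted p = 0.0033). Zfp423, a factor of fat and nerve cell development, was at 1983 and 1534 in untreated WT and 701 and 438 in untreated Cfp1-/- libraries (-1.60 ± 0.30), but at 1918 and 1077 against 824 and 935 when treated it missed the test (-0.74 ± 0.29, adjusted p = 0.089). With the replicate number as a block the treated value passed (adjusted p = 0.021), as it did without WT replicate 2, with a range from -1.10 to -0.28 over the fits without 1 library. Zfp52, Zfp125 and Zfp37 were lower by log2 fold changes of -1.48, -1.47 and -1.29 untreated. In treated cells Zfp37 was lowest, at -1.75 ± 0.23, followed by Zfp68 at -1.39 ± 0.15 and Zfp819 at -1.39 ± 0.26. Of the 29 genes higher in untreated Cfp1-/- cells 20 were also higher in treated cells, 69.0% of the first list and 80% of the second, and of the 49 lower genes 26 were lower in both, 53.1% and 74.3%. Over the 9499 genes past the limit these shares were 57.7% and 75.8% for higher genes and 52.4% and 75.0% for lower genes. No Zfp gene was called in opposite directions in the 2 comparisons, which share no library, and 6 of the 9499 genes were. Of the 49 genes lower in untreated cells 48 had the same sign in treated cells, and the exception was Zfp759, which was named after its values were seen.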

How the data were processed

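RNA depleted of ribosomal RNA was sequenced from 16 samples, in which each of the 8 biological replicates was run in duplicate. The authors aligned strand-specific reads to NCBIm37 with STAR (2.2.1 in the submitters' processing notes) and counted them per Ensembl gene with HTSeq in stranded union mode. They deposited raw counts per technical replicate, and a normalised signal per biological replicate that equals the summed counts over a DESeq size factor. Total counts per library were 14880589 to 29422711, and with 2 libraries a group the precision is limited by their spread.

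Technical replicates were summed. edgeR 4.0.16 (R 4.3.3) was run on all genes with filterByExpr, TMM scaling, 4 group coefficients, glmQLFit and glmQLFTest, with Benjamini-Hochberg adjustment over 15758 genes (common dispersion 0.0304). There were 5 contrasts. Standard errors were derived from the F statistic. A call is an adjusted p under 0.05. The fit was tested on simulated data.

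Symbols came from GENCODE vM1 by identifier, for 22324 of 22375 genes. Of the 237 genes 232 had the same coordinates there, and 2, Zfp738 and Zfp664, share their symbol with another gene. Coordinates are those of the deposited table. C2H2, KRAB and SCAN patterns were searched in proteins translated from GENCODE coding sequences, since no RefSeq protein was at hand as had been intended. Promoters were taken from RefSeq (GRCm38.p6) by symbol or synonym, the first entry per gene.

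Genes were named by rule: the 8 largest calls each way in each doxorubicin response, the 5 largest each way between lines, up to 10 with the lowest adjusted p in the response difference, listed genes of known role, the 5 highest per kb, and the extremes of clusters. The genes and lists were chosen with earlier results of these data known. Markers of primitive endoderm, ectoderm and mesoderm were also summed. Markers of primitive endoderm were at 141 to 417, of epiblast and ectoderm at 536 to 5964 and of mesoderm at 118 to 342 normalised counts over the libraries.

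Replicate numbers were taken to pair the libraries, because deviations of equally numbered libraries from their group means correlated in all 6 pairs of groups (0.18 to 0.61 over genes past the limit). The fit without the block stays the main one. DESeq2 1.42.0, other scalings, filters, limits, gaps, runs and left-out replicates were tried as alternatives.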

Additional observations from a re-analysis of the deposited data

Results flagged for a closer look

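Zfp658 stood out because its doxorubicin responses in the 2 lines had opposite signs, each called, in both replicates. The difference of the responses was -1.82 on the log2 scale, with an adjusted p of 0.057 (edgeR quasi-likelihood test). Groups of 2 are too small for a test of single deviating libraries.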

How the results depend on the processing

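With total counts as library sizes the medians over all genes tested moved, and with them the medians of the Zfp genes to -0.034 (WT response), -0.059 (Cfp1-/- response), -0.089 (response difference), 0.12 (untreated lines) and 0.046 (treated lines), those of KRAB genes to -0.072 and -0.10 and of the others to -0.00103 and -0.029 in the 2 responses, and those of chromosome 7 to 0.63 and 0.34. Falls in the WT response were then 48, at 2.5-fold 8 and in Cfp1-/- cells 7, and between lines 51 were higher and 30 lower untreated, 20 lower treated, with 33 higher on chromosome 7 untreated and 1 call in the response difference. Scaling within each chromosome gave medians of -0.23 and -0.18 in the responses, -0.29 and -0.21 for KRAB genes, -0.19 and -0.12 for the others, and -0.0498 and -0.19 on chromosome 7, where 8 and 4 were higher, and 13 higher among all treated Zfp genes. By construction this sets the median of the other genes of a chromosome to 0. Under it Zfp260 turned from 0.48 to -0.0021 between untreated lines and Zfp369 from -0.41 to 0.0551 in the WT response.

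With the replicate number as a block, 55 genes were lower between treated lines and 2 in the response difference. With the block and without the deviating run the values were 65 and 3, with 39 higher between treated lines, 75 lower between untreated lines and a chromosome 7 median of 0.20 treated. The block changed no other count by more than 1.5 times. Without that run alone there was 1 call in the response difference and a treated chromosome 7 median of 0.19. DESeq2 and the fit without a filter each called 2. A limit of 400 normalised counts left 25 rises in Cfp1-/- cells, 5 at 2.5-fold in WT, 16 and 13 higher between lines, 9 and 7 of them on chromosome 7, with medians of -0.41 (WT response), -0.51 and -0.39 (KRAB) and 0.36 and 0.19 (chromosome 7); fewer genes enter by construction. A fold limit of 2 gave 31 falls in WT and 14 rises and 30 falls in Cfp1-/- cells. The number of clusters was 17 and 22 with gaps of 250 and 1000 kb.

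Leaving out 1 library at a time, with the lone library assumed to vary like the other groups, gave 25 to 36 rises and 60 to 91 falls in WT (60 without untreated WT replicate 1) and 23 to 41 rises and 55 to 92 falls in Cfp1-/- cells (27, 25, 23 and 25 rises without untreated replicates 1 and 2 and treated replicates 1 and 2, and 55 falls without treated replicate 2), with medians of -0.47 to -0.27 and -0.33 to -0.25. KRAB medians were -0.50 to -0.32 and -0.41 to -0.32, and those of the others -0.42 to -0.25 and -0.33 to -0.18. The response difference had no calls and medians of -0.073 to 0.067. Between untreated lines 17 to 31 were higher (17 without WT replicate 2) and 30 to 56 lower (30, 30 and 31 without WT replicate 2 and Cfp1-/- replicates 1 and 2), with medians of -0.12 to -0.017, and 13 to 21 were higher on chromosome 7 (13 without WT replicate 2), with medians of 0.32 to 0.51. Between treated lines 7 to 23 were higher (7, 8 and 9 without WT replicate 2 and Cfp1-/- replicates 1 and 2) and 13 to 39 lower (19, 20, 13 and 14 without WT replicates 1 and 2 and Cfp1-/- replicates 1 and 2), with medians of -0.115 to 0.027, and 3 to 15 were higher on chromosome 7 (3, 5 and 6 without WT replicate 2 and Cfp1-/- replicates 1 and 2), with medians of 0.15 to 0.38. Of the calls, 72 of 130, 71 of 128, 37 of 78 and 15 of 60 passed in all 8 such fits and none changed sign. The causes of these changes were not tested. The lowest count of a Zfp gene in any library was 22.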
